A study of Mus musculus with 6 samples.

Results

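Integrins, laminins and the proteins around them connect cells to the extracellular matrix. Across the arrays of this study they were represented by 42 genes. A gene was a member when a probe set carried its symbol alone and that symbol was an integrin alpha or beta subunit (Itga, Itgb), a laminin chain (Lama, Lamb, Lamc), or one of the ligands and laminin partners Vtn, Fn1, Nid1, Nid2, Hspg2, Agrn and Tnc. The rule also names Spp1, which was not analysed here. This gave 90 probe sets, and each gene was read from whichever of its probe sets had the highest 6-array mean. The members comprised 25 integrin subunits, 10 laminin chains, 4 laminin partners and 3 further ligands, of 18193 genes with a probe set of their own. Of the 42, 34 had a mean log2 level above the limit set for dim genes and entered the test, with 12703 genes in all, and 8 were dim.

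Olfactory epithelium was taken from mouse pups aged 1 day, 3 labelled wild type and 3 labelled mutant, and the RNA of each pup was hybridised to its own array. Both groups had the same mixed C57Black6/J and 129SvJ background, and the labels list no treatment. The series is titled as a search for targets of KLF7, a zinc finger transcription factor of neurons, and the labels do not say which allele the word mutant stands for. All RNA was amplified with a commercial biotin kit before hybridisation.

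An integrin is a membrane receptor made of an alpha and a beta subunit that binds matrix outside the cell and the actin cytoskeleton inside it. Laminins are cross-shaped trimers of an alpha, a beta and a gamma chain that assemble with nidogens, perlecan (Hspg2), agrin and type IV collagen into the basement membrane. In the olfactory mucosa a basement membrane lies under the basal cells, and laminin and fibronectin line the path along which olfactory axons and ensheathing glia run to the bulb.

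Levels are given as log2 of the normalized intensity, and a difference is the mutant mean minus the wild-type mean on that scale. Values listed by group are in the order of arrays 1, 2 and 3. The lowest level that can be read is the floor of 3.65, and a fold change of a gene near it is understated. All 4 Klf7 probe sets were lower on every mutant array than on any wild-type array, with differences from -3.06 to -2.15. The probe set with the largest difference, 1419354_at, read 9.36, 8.58 and 9.04 in wild type against 6.85, 5.70 and 5.26 in mutant (limma, difference -3.06, SE 0.487, adjusted p = 1 over all probe sets). The exact permutation p for each Klf7 probe set was 0.1, the smallest that 3 arrays against 3 can give. Wild-type array 3 and mutant array 3 stood apart, at 98.2 and 49.5 on a first principal component that carried 50.2% of the variance, with the other arrays between -42.4 and -32.3. The tissue label was checked on 8 genes of mature olfactory sensory neurons, all of which were above the dim limit. Their summed normalized intensity ran from 5610 to 7380 in wild type and from 3310 to 4170 in mutant. Of the 8, 6 were lower in the mutant and 2 higher, Cngb1 by 0.73 and Adcy3 by 0.36. Omp differed by -0.36 with overlapping groups. Markers of tissue outside the epithelium were also read on the arrays and are given beside the genes they concern.

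No member separated the genotypes past the threshold. Limma called 0 of the 34 members and 0 of all 12703 genes, 0% in both cases, at an adjusted p under 0.05. At an unadjusted p under 0.05 there was 1 member, Vtn, against 76 genes, or 0.598%, of all tested, with 0.157% of all genes at that level and higher in the mutant. Vtn passed the limit for dim genes only through its mutant arrays. Itga2 did too, with a wild-type mean of 5.1 below that limit and a mutant mean of 5.62 above it. Neither this count nor any later count that includes Vtn or Itga2 therefore supports anything about the members. When replicate number was added as a block, the members at that level were Vtn, Itga9 and Itga8, 3 in all, against 157 genes or 1.24%, and the adjusted count stayed at 0. The groups did not overlap for 2 members, Vtn and Itga9, both higher in the mutant, against 2.86% of all genes, with 0.905% of all genes higher and 1.95% lower. With so few members, 1 gene more or less moves such a share by several percent. The median difference over the 34 was 0.05 beside -0.02 over all genes tested, with 19 members higher (55.9%, against 47.4% of all genes) and 15 lower (52.6% of all genes). With no normalization of the deposited intensities the split was 24 higher and 10 lower, and the median over all genes moved from -0.02 to 0.06. Within the pairs of arrays of the same number the median over the members was 0.42, -0.03 and -0.14. In whole-tissue RNA, fewer cells of a type and less RNA per cell cannot be told apart.

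**Figure D1:**
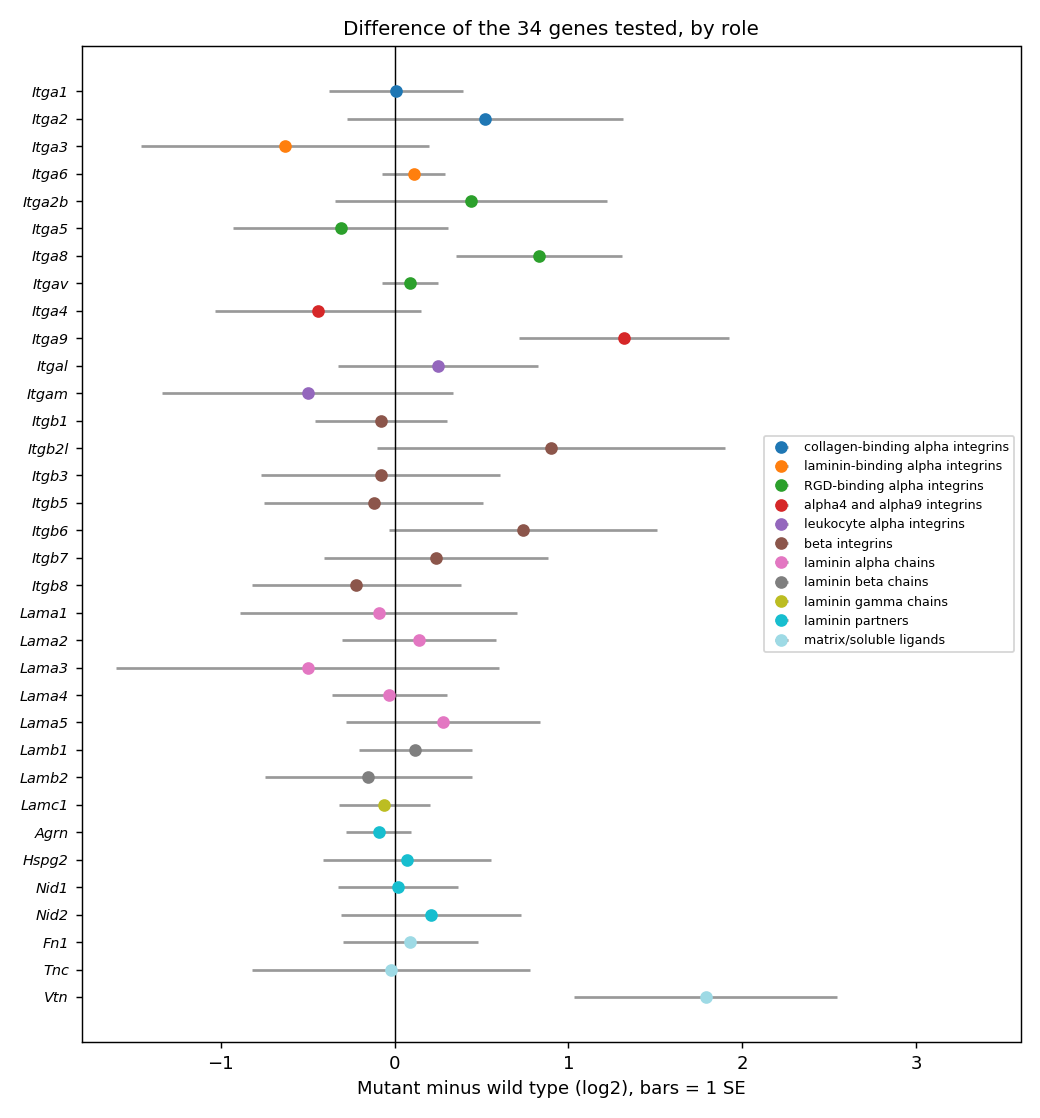
Horizontal axis, mutant minus wild type on the log2 scale for each of the 34 members tested, with bars of 1 standard error from limma, coloured by role. Vtn (1.79) and Itga9 (1.32) lie farthest to the right, and Itga8 (0.83) is the only other member more than 1 standard error from 0.

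Among the ligands, Vtn encodes vitronectin, an adhesive protein of plasma and matrix that integrins with the alpha V subunit bind. Vtn read 5.41, 3.65 and 4.48 in wild type against 6.15, 6.22 and 6.53 in mutant. Every mutant array was above every wild-type array, wild-type array 2 lay at the floor, and the mutant arrays lay close together. The means were 4.51 ± 0.88 and 6.30 ± 0.20 (SD, n = 3 each), a difference of 1.79 or 3.45-fold on this floored scale. Limma gave SE 0.757, a 95% interval from 0.12 to 3.45, an unadjusted p of 0.0379 and an adjusted p of 1. In the deposited intensities the gene read 33.31, 8.30 and 24.34 in wild type against 59.53, 95.96 and 87.01 in mutant. The wild-type values were below the median intensities of their arrays, 38.21, 51.32 and 52.81. The mutant values were above theirs, 38.79, 61.59 and 48.94. The wild-type mean was below the dim limit of 5.19 and the mutant mean above it, so Vtn entered the test through the group in which it was high. A dimmer Vtn probe set, 1455098_a_at, read 3.65, 4.50 and 3.65 in wild type against 4.79, 3.65 and 4.47 in mutant, with overlap and a difference of 0.37. When any 1 array was left out the difference of the chosen probe set stayed between 1.35 and 2.23, and without wild-type array 2 the unadjusted p was 0.142 by limma. Pericytes of small vessels are a known source of vitronectin mRNA in the brain. Of 8 pericyte markers, 8 were read and 0 lay at the floor on all arrays, and their summed intensity was 5680 to 6630 in wild type against 5480 to 6470 in mutant, with 5 of the 6 tested lower in the mutant. The part of pericytes in the Vtn values was not tested.

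Because the series looks for KLF7 targets, the proximal promoters of both members whose groups did not overlap are shown, from 250 bases before to 50 after the annotated start in RefSeq (build GRCm38.p6). KLF proteins bind GC-rich and CACCC-type boxes. The letters CACCC were searched on both strands, and capitals mark a match, which reads GGGTG when it lies on the opposite strand. The Vtn window is chr11:78498870-78499169 on the plus strand and the Itga9 window is chr9:118711442-118711741 on the plus strand.
Vtn: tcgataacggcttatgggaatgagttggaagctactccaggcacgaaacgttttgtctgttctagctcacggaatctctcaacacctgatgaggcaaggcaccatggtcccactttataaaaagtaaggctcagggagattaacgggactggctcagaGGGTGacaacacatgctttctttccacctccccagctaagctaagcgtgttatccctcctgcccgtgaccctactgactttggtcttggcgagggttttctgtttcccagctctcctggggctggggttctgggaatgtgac
Itga9: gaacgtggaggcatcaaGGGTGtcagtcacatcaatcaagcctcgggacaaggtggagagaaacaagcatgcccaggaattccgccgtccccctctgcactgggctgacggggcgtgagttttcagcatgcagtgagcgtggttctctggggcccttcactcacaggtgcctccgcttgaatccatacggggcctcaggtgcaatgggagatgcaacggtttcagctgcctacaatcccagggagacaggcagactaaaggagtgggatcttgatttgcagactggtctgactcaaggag
Each window held 1 match. CACCC occurred in 22 of 33 promoters found for 28 members (66.7%), and in 57.5% of all 32851 promoters in the table. A longer GC-box string, GGGNGNGG, which can overlap a CACCC match on the other strand, occurred in 24 of the 33 (72.7%) against 49.5% of all, and in neither of the windows shown. The match is a description of the letters and was not tied to the levels.

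Fibronectin (Fn1), the ligand of Itga5 with Itgb1, read 8.54, 10.04 and 9.69 in wild type against 9.71, 9.27 and 9.56 in mutant. Wild-type array 1 was the lowest, the other arrays lay within the mutant range or just above it, and the difference was 0.09 (SE 0.388). A dim Fn1 probe set, 1437218_at, was lower on every mutant array than on any wild-type array, with a difference of -0.57. Tenascin C (Tnc), a matrix glycoprotein of developing cartilage, tendon and nerve tracts, read 6.45, 9.97 and 7.13 in wild type against 8.59, 7.66 and 7.25 in mutant. The wild-type arrays spanned the whole mutant range, with array 2 far above the others, and the difference of -0.02 (SE 0.797) had a 95% interval from -1.77 to 1.74. Without wild-type array 2 it was 1.04.

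Some markers of cartilage and bone, which a dissection can carry along, were highest on the same array as Tnc and others were not. Acan, the cartilage proteoglycan aggrecan, read 5.94, 9.92 and 6.14 in wild type against 9.16, 7.48 and 7.22 in mutant. Of 10 such markers 9 were read, 0 lay at the floor on all arrays, and their summed intensity was 986, 6590 and 2330 in wild type against 3710, 1580 and 2760 in mutant. Matn3, another of them, was highest on wild-type array 3, at 9.59, Matn1 on mutant array 2, at 5.88, and Comp on mutant array 3, at 5.57. Mutant array 2 had the second lowest sum but the third highest Tnc. Itga10, the integrin alpha subunit of cartilage that binds collagen, was dim and read 3.65, 7.08 and 3.65 in wild type against 6.67, 3.65 and 4.44 in mutant. It left the floor on wild-type array 2 and on mutant arrays 1 and 3, and was highest on the array with the highest cartilage and bone sum. Ibsp was the brightest of these markers on that array, at 11.22, and lay at 3.65 on mutant array 2. The part of cartilage and bone in the Tnc and Itga10 values was not tested.

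**Figure D2:**
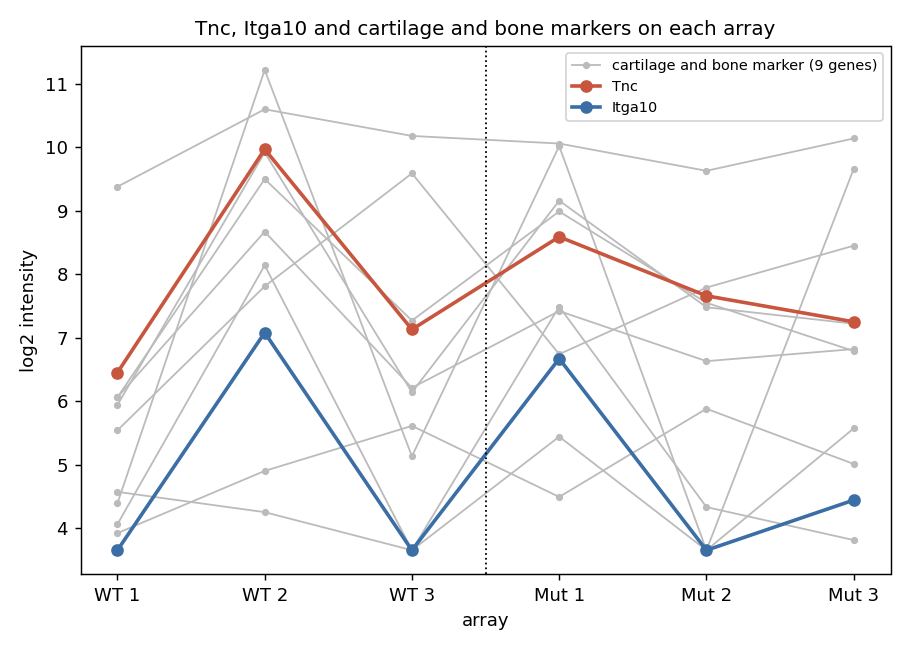
Vertical axis, log2 intensity on each of the 6 arrays for Tnc (red), Itga10 (blue) and 9 markers of cartilage and bone (grey); lines join the values of 1 gene and carry no order in time. Tnc, Itga10 and several markers peak on wild-type array 2, with mutant array 1 next for Tnc (8.59) and Itga10 (6.67).

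Itga9 had the largest difference among the integrins tested. It encodes an alpha subunit that pairs with Itgb1 and binds tenascin C and osteopontin, among others. Itga9 read 6.81, 5.40 and 6.54 in wild type against 7.05, 8.31 and 7.34 in mutant. All mutant arrays lay above all wild-type arrays, by a gap smaller than the spread within either group. Its means were 6.25 ± 0.75 and 7.57 ± 0.66 (SD, n = 3 each), 2.50-fold apart. The difference was 1.32 with SE 0.603 and a 95% interval from -0.01 to 2.65 (limma, adjusted p = 1). The pair numbered 2 gave most of it, with 2.91, against 0.25 and 0.81 for the pairs numbered 1 and 3. The other Itga9 probe sets, 1420860_at and 1450029_s_at, differed by 0.11 and 0.40 with overlapping groups, and averaging all of them gave 0.61.

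Itga4, the relative of Itga9 that serves leukocytes and neural crest cells, read 6.20, 6.80 and 7.30 in wild type against 6.49, 5.79 and 6.71 in mutant. The groups overlapped, with a difference of -0.44 (SE 0.594). A second Itga4 probe set above the limit gave -0.42, with mutant array 2 at 8.46 and mutant array 3 at 4.36.

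Itga5, Itga8, Itgav and Itga2b recognise the arginine-glycine-aspartate motif of fibronectin, vitronectin and other ligands. Itga8, a subunit of mesenchyme and developing nerve that binds tenascin C, fibronectin and vitronectin, read 7.73, 7.73 and 9.15 in wild type against 8.68, 8.74 and 9.69 in mutant. Each mutant array was above the wild-type array of the same number, by 0.96, 1.01 and 0.54, while wild-type array 3 lay above mutant arrays 1 and 2. The difference was 0.83 (SE 0.476), and the block on replicate number took the unadjusted p from 0.108 to 0.0365 and left the adjusted p at 1 (limma). Without wild-type array 3 it was 1.31. A dim Itga8 probe set, 1427489_at, lay at the floor on all wild-type arrays and at 4.22, 4.71 and 4.12 in mutant.

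Itgav, the alpha V subunit of the classical vitronectin receptors, was among the steadiest members, at 11.56, 11.79 and 11.73 in wild type against 11.68, 11.92 and 11.75 in mutant. The groups interleaved over a range of 0.35, and the difference was 0.09 with a 95% interval from -0.27 to 0.45. Itga5, the fibronectin receptor subunit, differed by -0.31 (SE 0.619) and its second probe set by 0.39. Itga2b, the platelet subunit, read 6.26, 5.17 and 4.35 in wild type against 5.75, 6.27 and 5.10 in mutant. The ranges overlapped almost entirely, with a difference of 0.44 (SE 0.782) that was -0.01 without wild-type array 3.

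Of the laminin-binding subunits, Itga6 marks basal cells of many epithelia and read 11.05, 11.08 and 11.05 in wild type against 11.18, 11.29 and 11.04 in mutant. Its range over the 6 arrays was 0.25, and mutant array 3 lay below the wild-type arrays. The difference was 0.11 (SE 0.182), with a 95% interval from -0.29 to 0.51, and the second Itga6 probe set also gave 0.11. Itga3, a laminin receptor of epithelia, was far less even, at 6.66, 7.15 and 8.04 in wild type against 6.51, 4.95 and 8.51 in mutant. Mutant array 2 was the lowest and mutant array 3 the highest, so the mutant spread covered the wild type and the difference of -0.63 (SE 0.826) became 0.22 without mutant array 2. The 8 squamous epithelium markers, with 0 at the floor on all arrays, summed to 360, 4490 and 528 in wild type against 1800, 172 and 1600 in mutant. Mutant array 2 was the lowest for the sum and for Itga3, but it was also the lowest for 24.7% of all genes. Wild-type array 2 had the highest sum with Itga3 at 7.15, and wild-type array 3 had Itga3 at 8.04 with a sum of 528. The part of squamous tissue in the Itga3 values was not tested. Itga7, the laminin receptor of muscle, was dim, at 4.34 to 5.28 over the 6 arrays.

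The collagen receptors Itga1 and Itga2 differed by 0.01 (SE 0.384) and 0.52 (SE 0.793). Itga2, a subunit of platelets and epithelia, read 4.76, 4.91 and 5.64 in wild type against 4.72, 6.67 and 5.47 in mutant. Mutant array 2 was the highest, and without it the difference was -0.01. The wild-type mean of Itga2 was below the dim limit and the mutant mean above it, so Itga2 entered the test through the group in which it was high.

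Among beta subunits, Itgb1 is the common partner of most alpha chains named above. It read 8.78, 8.21 and 8.71 in wild type against 8.39, 8.94 and 8.14 in mutant, with the groups interleaved. The difference was -0.08 (SE 0.379), and the 95% interval ran from -0.91 to 0.76. Itgb1 had 5 probe sets above the dim limit, 2 of them lower in the mutant and 3 higher. Itgb6, the epithelial partner of the alpha V chain that activates latent TGF-beta, read 4.66, 6.06 and 5.52 in wild type against 5.21, 7.25 and 5.98 in mutant. It was higher in the mutant within each numbered pair, by 0.55, 1.20 and 0.46, but the groups overlapped and the difference of 0.74 (SE 0.770) was smaller than its standard error. Itgb3, Itgb5, Itgb7 and Itgb8, which pair with alpha V or with leukocyte and platelet chains, differed by -0.08, -0.12, 0.24 and -0.22, each with an SE of 0.602 to 0.688. Itgb4, the hemidesmosome subunit that pairs with Itga6, was dim and lay at the floor on 3 of the 6 arrays, reading 4.36 and 5.44 on wild-type arrays 1 and 2 and 5.70 on mutant array 1.

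Of the leukocyte integrins, Itgax, Itgb2 and Itgae, subunits of dendritic cells, of leukocytes at large and of intraepithelial T cells, were dim, while Itgam and Itgal were tested. Itgam, the alpha subunit of macrophages and neutrophils, read 6.0, 5.36 and 6.69 in wild type against 5.80, 3.99 and 6.77 in mutant, a difference of -0.50 (SE 0.837) that became 0.27 without mutant array 2. Itgal, a lymphocyte subunit, differed by 0.25 (SE 0.576). The 9 macrophage and leukocyte markers, none of them at the floor on all arrays, summed to 1910, 3860 and 2410 in wild type against 2720, 1460 and 3370 in mutant. The lowest sum was on mutant array 2, where Itgam was lowest, and the highest on wild-type array 2, where Itgam read 5.36. Itgal was highest on mutant array 2, at 7.38, as was the marker Adgre1, at 5.73. Itgb2l, a gene related to Itgb2 that is known from neutrophils, read 4.80, 4.03 and 8.04 in wild type against 5.61, 6.50 and 7.45 in mutant. Both arrays numbered 3 were the highest of their groups, and the difference of 0.90 (SE 1.00) was 2.10 without wild-type array 3 and 0.10 without wild-type array 2. Its second probe set above the dim limit, 1433053_at, gave -0.13, and averaging all of them gave 0.17. The 7 neutrophil markers, with 0 at the floor on all arrays, summed to 3730, 3740 and 4790 in wild type against 5150, 4070 and 4900 in mutant. Ltf was the brightest of them on every array, at 11.06 to 11.76, so it weighs most in the sum, and Ngp, Mpo and Elane were dim. The part of leukocytes in these values was not tested.

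**Figure D3:**
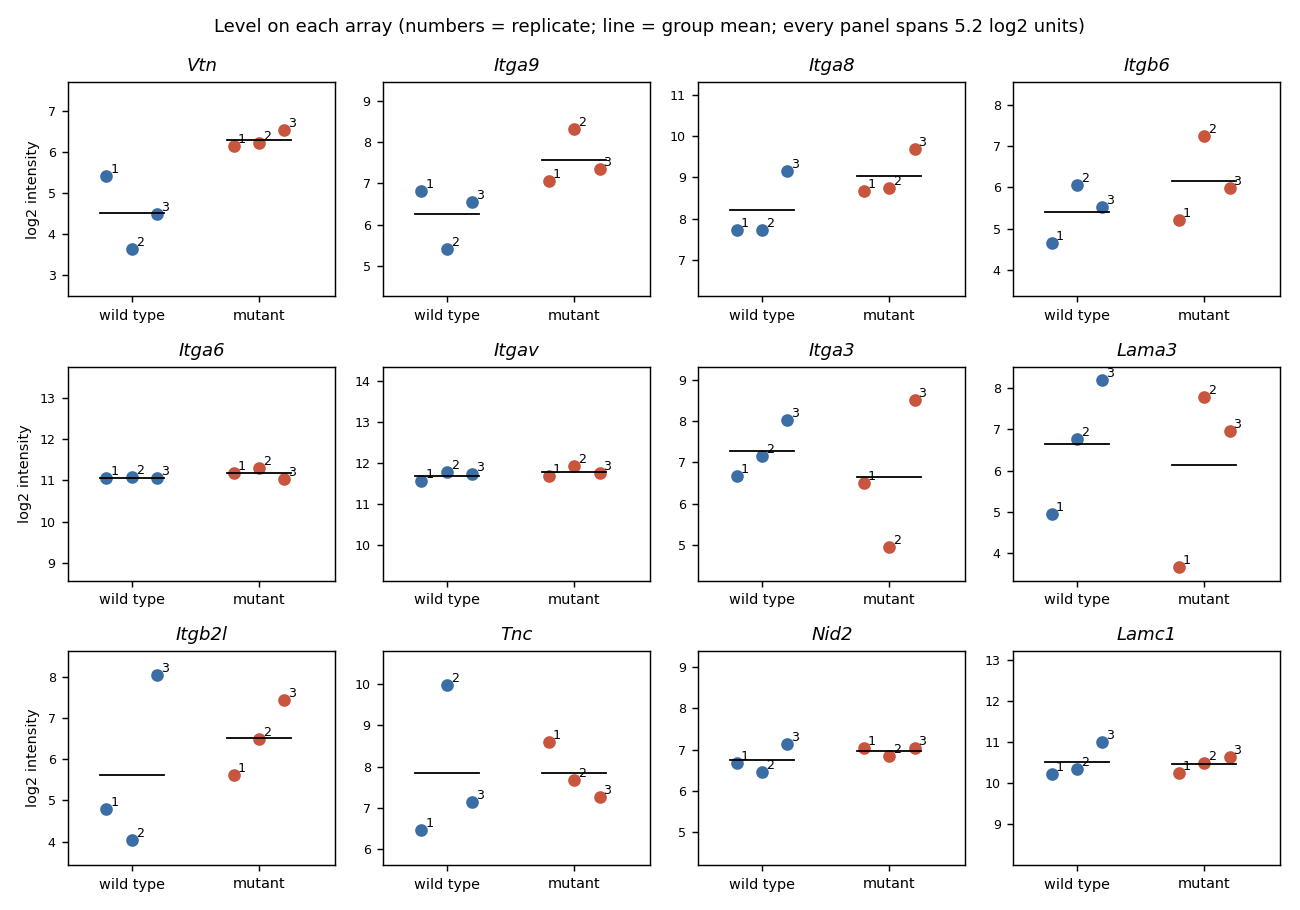
Vertical axes, log2 intensity of 12 members on each array, wild type in blue and mutant in red, with replicate numbers beside the points and a line at each group mean; every panel covers the same span of log2 units. Vtn and Itga9 show groups that do not overlap, Itga6 and Itgav lie nearly flat, and Itga3, Lama3, Itgb2l and Tnc are spread widely within a group.

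Laminin chains did not separate the genotypes. Of 10 chains 8 were tested, 5 lower and 3 higher in the mutant, with differences from -0.50 to 0.28 and a median of -0.05. None of the 8 was at an unadjusted p under 0.05 or had groups without overlap. Lamc1, the gamma chain shared by most laminins, read 10.23, 10.33 and 10.99 in wild type against 10.24, 10.48 and 10.64 in mutant. The mutant values lay inside the wild-type range, and the difference was -0.06 with a 95% interval from -0.64 to 0.51. Lamb1, the beta chain of embryonic basement membranes, read 9.03, 9.63 and 10.12 in wild type against 9.63, 9.58 and 9.92 in mutant, again inside the wild-type range, with a difference of 0.12 (SE 0.323). Lamb2, the beta chain of synaptic and kidney basement membranes, read 6.94, 7.14 and 8.68 in wild type against 7.42, 6.73 and 8.17 in mutant. Array 3 was the highest in each genotype, and the difference was -0.15 (SE 0.597).

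Of the alpha chains, Lama2 of muscle and nerve differed by 0.14 (SE 0.442), Lama4 of vessels by -0.03 (SE 0.331), Lama5 of mature epithelia by 0.28 (SE 0.557) and Lama1 of early embryonic membranes by -0.09 (SE 0.797). Lama3, the epithelial chain that anchors basal cells, had the widest range of any member tested, 4.55. It read 4.94, 6.76 and 8.20 in wild type against 3.65, 7.78 and 6.97 in mutant. Array 1 was the lowest in each genotype, at the floor in mutant, and the difference of -0.50 (SE 1.10) was 0.74 without mutant array 1 and 0.28 without wild-type array 3. Its second probe set, 1427512_a_at, differed by -0.91 but put mutant array 1 at 6.10 and mutant array 2 at 3.66, so both probe sets ordered the arrays differently. Lamb3, which joins Lama3 in the epithelial laminin, and Lamc3 were dim, with differences of -0.32 and -0.08.

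The laminin partners had nearly equal means in both genotypes. Agrn (agrin), which organises receptors at synapses and binds laminin, differed by -0.09 (SE 0.187), Hspg2 (perlecan) by 0.07 (SE 0.482), Nid1 (nidogen, the laminin to collagen IV linker) by 0.02 (SE 0.343) and Nid2 by 0.21 (SE 0.515). Nid1 read 10.13, 10.87 and 11.68 in wild type against 10.69, 10.80 and 11.25 in mutant, with the mutant values inside the wild-type range. Nid2 read 6.68, 6.46 and 7.14 in wild type against 7.04, 6.84 and 7.03 in mutant, with wild-type array 3 above the mutant arrays. A dim Agrn probe set, 1443980_at, went the other way from the chosen one. It was higher on every mutant array than on any wild-type array, with a difference of 0.70.

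The laminin chains and their partners shared a pattern over the arrays that did not follow genotype and was picked out after the values were seen. Of these 12 genes, 10 were highest on wild-type array 3, or 83.3%, where 23.1% of all genes tested were highest. Wild-type array 1 was the lowest for 7 of them, or 58.3%, against 10.6% of all genes. Relative to each gene's own mean the median of the 12 was -0.60, -0.03 and 0.53 on the wild-type arrays and -0.06, -0.10 and 0.31 on the mutant arrays. Over all genes tested these medians were 0.07, 0.08 and -0.07, and 0.11, -0.10 and 0.02. On the normalized scale both extremes were thus wild-type pups. In the deposited intensities Lama3, Lamb1, Lamc1 and Nid2 were instead highest on mutant array 2, and Lama4 on wild-type array 2. Lamb1, for example, read 881.96 on mutant array 2 and 855.25 on wild-type array 3. Lama1, Lama2, Lamb2, Hspg2 and Nid1 stayed highest on wild-type array 3, so the peak there depended in part on normalization. For 10 of the 12 the SD was larger in wild type than in mutant, 83.3% against 57.6% of all genes. The median difference of the 12 was -0.01, but -0.25 without wild-type array 1 and 0.40 without wild-type array 3. With no normalization it was 0.1, with 9 higher and 3 lower in the mutant. Among the integrins 3 of 19, or 15.8%, were highest on wild-type array 3. The 8 endothelial markers, of which 0 lay at the floor on all arrays, summed to 1000, 1050 and 1610 in wild type against 1320, 1140 and 1110 in mutant, and the 6 fibroblast markers to 12500, 17600 and 14300 and to 15900, 15200 and 15500. Wild-type array 1 had the lowest sum of both lists and wild-type array 3 the highest endothelial sum. The fibroblast sum was highest on wild-type array 2 instead. Mutant array 3, where the median of the 12 was 0.31, had the lowest endothelial sum of the mutant arrays. The part of vessels, stroma or the quality of that array in the pattern was not tested.

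**Figure D4:**
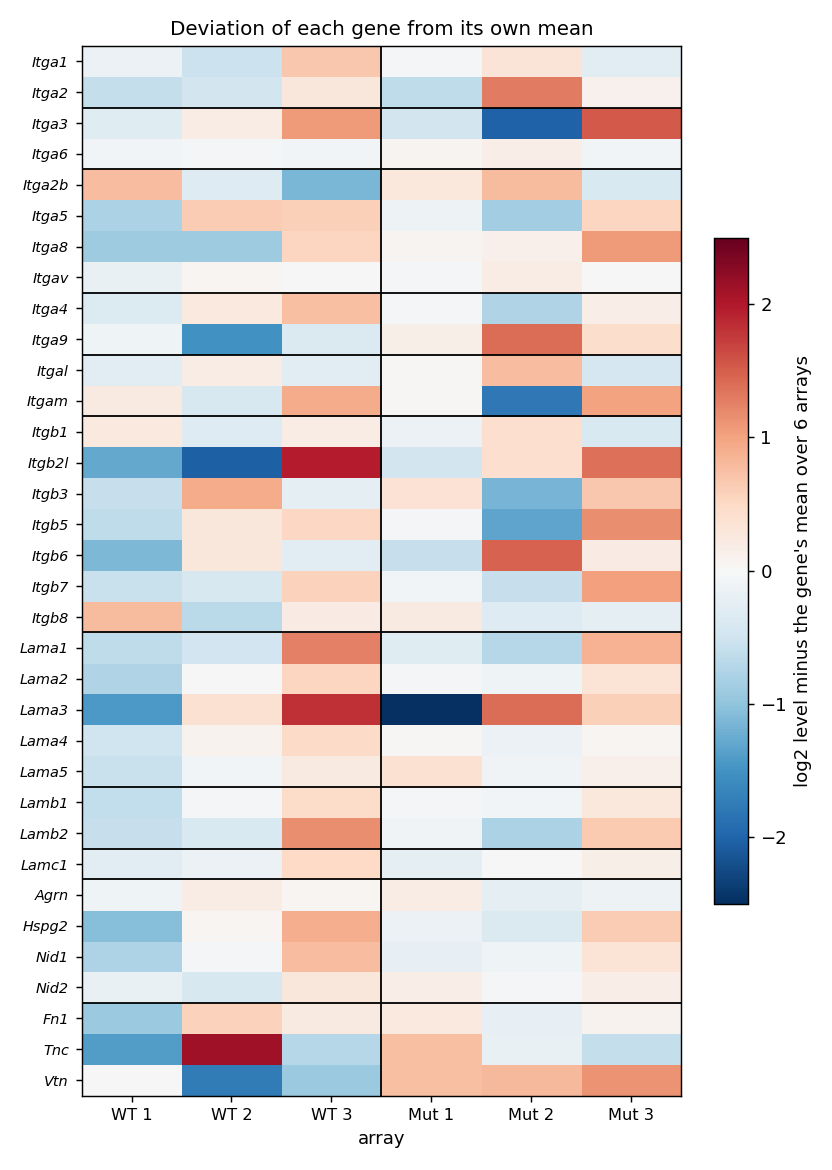
Each row is 1 of the 34 members tested, ordered by role, and each column an array; colour is the log2 level minus the gene's mean over the 6 arrays. The rows from Lama1 to Nid2 are mostly blue on wild-type array 1 and red on wild-type array 3, and Vtn is blue to neutral in wild type and red in mutant.

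The range over the 6 arrays was near that of other genes. Its median was 1.57 for the members against 1.41 for all genes, and 10 of the 34 spanned over 2 log2 units, or 29.4% against 29.5%. Integrins had a median range of 1.92 and laminins of 1.19. Within the 3 numbered pairs, 5 members differed in the same direction each time, all of them higher in the mutant, namely Itga8, Itgav, Itga9, Itgb6 and Vtn. These are 5 of 34, a share near the 15.8% of all genes that kept 1 direction, of which 6.31% were higher and 9.46% lower in the mutant. Vtn is in this count although it passed the dim limit only through its mutant arrays.

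Where a gene had several probe sets above the dim limit they often differed in sign. This was so for 8 of 17 such members, and 9 of the 17 had all probe sets on 1 side, among them Itga9, Itga6, Itgb6 and Lama5 on the higher side and Itga3, Itga4, Lama3 and Lama4 on the lower. The sign of the difference therefore rests on the probe set for Hspg2, Itga5, Itgav, Itgb1, Itgb2l, Itgb5, Lamb1 and Lamc1.

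**Figure D5:**
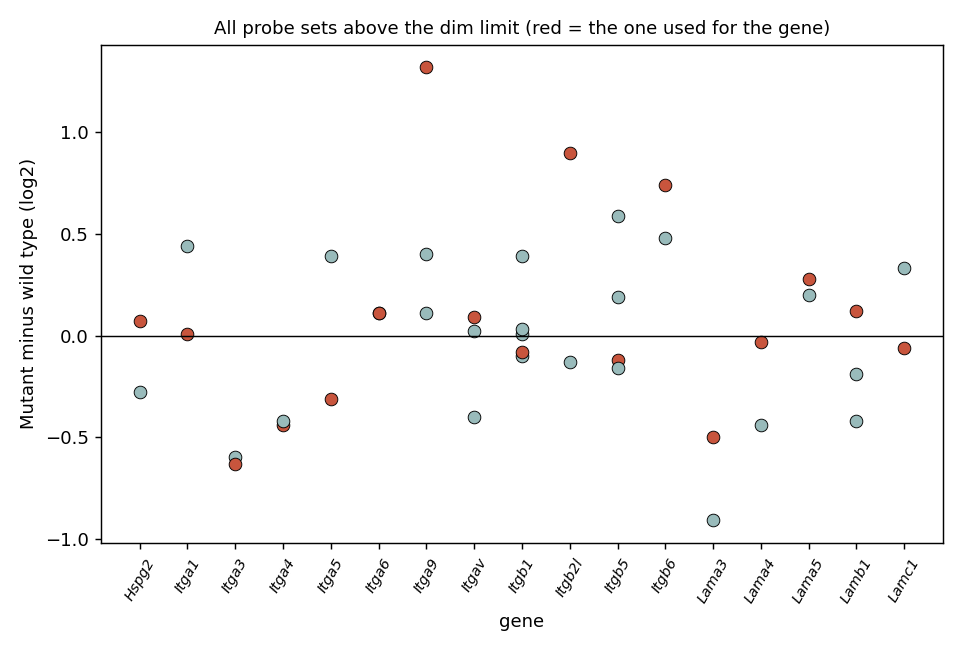
Vertical axis, mutant minus wild type (log2) for every probe set above the dim limit of the 17 members that have more than 1; red marks the probe set used for the gene. For 8 of the 17 genes the points lie on both sides of 0.

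Other genes of the adhesion machinery were read from lists of named genes. Of 20 integrin adaptors and focal adhesion proteins tested, 11 were higher and 9 lower, with a median difference of 0.06 and 0 at an unadjusted p under 0.05. The smallest p values belonged to Lims1 (PINCH, a partner of integrin-linked kinase), Fermt2 (kindlin, which activates integrins) and Tns1 (tensin), with differences of 0.98 (SE 0.682), 0.61 (SE 0.434) and 0.64 (SE 0.502). For all of these wild-type array 3 was the lowest, at 5.55, 7.38 and 6.84. Of 19 other integrin ligands 6 were higher and 13 lower, with a median of -0.16. Ccn1, a matricellular ligand, differed by 0.43 (SE 0.299), its relative Ccn3 by -0.35 (SE 0.325) and periostin (Postn) by -0.36 (SE 0.339). Of 14 other basement membrane proteins 9 were higher and 5 lower, with a median of 0.10, led by the calcium-binding protein Smoc1 at 1.25 (SE 0.738), the collagen chain Col4a6 at -1.46 (SE 1.02) and Frem2 at -0.56 (SE 0.611). The 4 hemidesmosome proteins had a median of 0.05, with Plec (plectin) at 0.24 (SE 0.361), Cd151 at -0.27 (SE 0.424) and Col17a1 at 0.10 (SE 0.587). Of 10 other matrix receptors 4 were higher and 6 lower, with a median of -0.07, among them the syndecans Sdc3 at 0.97 (SE 0.605) and Sdc4 at -0.26 (SE 0.280) and the urokinase receptor Plaur at -0.78 (SE 1.03). Of the genes tested in these 5 lists 0 passed by limma, 0 had an unadjusted p under 0.05 and 0 had groups that did not overlap. Bcam, a laminin receptor too dim to be tested, read 5.25, 4.79 and 5.12 in wild type against 4.77, 3.65 and 4.43 in mutant, without overlap.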

How the data were processed

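RNA of olfactory epithelium from 3 wild-type and 3 mutant pups was measured on 1 array each. The deposited table gives 1 linear intensity per probe set, and no label or header states how the authors summarised or scaled it. Array quartiles differed by 0.54 to 0.69 on the log2 scale, so the 45037 probe sets were quantile normalized, floored at their 20th percentile (an intensity of 12.56) and put on the log2 scale. Names came from the platform annotation, of which 34945 probe sets carried 1 symbol, 932 several and 9160 none. For each gene the probe set with the highest mean was kept, and genes with a mean below 5.19, the lowest 40% of single-gene probe sets, were left out as dim. Entrez numbers of all 42 members were found in the RefSeq table of GRCm38.p6, with 0 symbols changed.

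The genotype test was limma 3.58.1 under R 4.3.3 (lmFit, then eBayes with its trend option), two-sided. The Benjamini-Hochberg method adjusted p over the 12703 genes tested, and 0.05 was the threshold. The 3 arrays a group limit the precision. Members, lists and tests were chosen with earlier results of these data known. Values on all arrays were given for the 12 with the smallest p, those without overlap, the largest difference of each role and the 4 widest ranges. Values on all arrays of Fn1, Itgb1, Itga10, Lamb1, Nid1 and Acan were added after they were seen. Up to 3 genes of each pathway list were named by smallest p. Replicate numbers come from the sample titles. Deviations from the group means correlated between same-numbered arrays at 0.473, 0.181 and 0.564, all over 0.1, and values are also given within pairs by number. The deviations of wild-type array 2 and mutant array 1 correlated too, at 0.219, which is more than the arrays numbered 2. The genotype test did not use the pairing, and SEs, intervals and p values are from that unpaired fit unless the block is named. A fit blocked on that number was an alternative, beside other normalizations, floors, dim filters, probe set choices and variance models, and leaving out arrays.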

Additional observations from a re-analysis of the deposited data

How the results depend on the processing

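In each alternative run, the replicate block included, limma called 0 of the members and 0 of all genes at an adjusted p under 0.05. The Klf7 probe sets stayed lower in the mutant with the block and without any 1 array. Their groups did not overlap, so these runs could not have reversed them. Genes at an unadjusted p under 0.05 numbered 76, against 43 with array medians set equal, 50 with no normalization, 191 with no dim filter, 157 with the replicate block, 71 to 219 without any 1 array, and 123 without both arrays numbered 3. Members at that level were 1, against 3 with no normalization, 3 with the block, 2 with no intensity trend, 2 without both arrays numbered 3, 0 with the mean of all probe sets, and 0 to 4 without any 1 array. The 0 came without wild-type array 2 or any mutant array, and the 4 without wild-type array 3. With the mean of all probe sets Vtn was below the dim limit and had no value.

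The median difference over the members ranged from -0.16 to 0.25 without any 1 array, which is within the SD of 0.30 between the numbered pairs. Of 17 members followed, which were picked by their values in these data, 9 kept their direction in every alternative run that tested them. Vtn, Itga9 and Itga8 were among these 9. The groups of Vtn and Itga9 did not overlap, so leaving out arrays could not reverse them, and this count lends them no support. For Vtn this count also carries the earlier limit, since it was tested only through its mutant arrays. Reversals were of differences near 0 or with wide spread. Lamb2 was at 0.01 with no normalization and 0.03 without both arrays numbered 3. Lamc1 was at 0.03 with no normalization, 0.13 with the mean of probe sets and 0.08 without both arrays numbered 3. Tnc was at 0.08 with medians set equal, 0.14 with no normalization and 0.05 with the mean of probe sets. Without any 1 array the ranges were -0.01 to 0.97 for Itga2, -1.56 to 0.22 for Itga3, -0.01 to 0.94 for Itga2b, -1.12 to 0.27 for Itgam, -1.34 to 0.74 for Lama3, -0.52 to 0.40 for Lamb2, -0.21 to 0.18 for Lamc1 and -0.72 to 1.04 for Tnc. The cause of these reversals was not tested beyond the array left out. Signal over background limits what can be read of the 8 dim members and of members close to the dim limit, such as Itga2, Vtn and Itga2b.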
